A study of Homo sapiens with 12 samples.

Results

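The histone genes were followed through every probe set of the array whose annotation names one of them, by current or older gene symbol. These were 88 of 22215 probe sets that are not array controls. Of them 63 name clustered, replication-dependent histone genes (62 genes) and 25 name variant histone genes (13 genes). A probe set is a group of short probes whose combined brightness gives 1 signal, and 59 of the 88 name a single histone gene while 29 name several. Coding sequences of clustered histone genes are very similar, so a probe set naming several genes gives no level of any single one, and probe sets naming 1 gene may also bind others. In all, 75 histone genes were named of 13119 genes named by the array, and 50 of the 75 had a probe set of their own.

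Histones package DNA into nucleosomes, each built from H2A, H2B, H3 and H4, with linker histone H1 where the DNA enters and leaves. Clustered histone genes are transcribed mainly in S phase, and their mRNAs end in a stem loop bound by SLBP in place of a poly(A) tail. Most variant histone genes lie alone, are expressed through the cell cycle and give polyadenylated mRNAs, among them those of H2A.Z, macroH2A and H3.3.

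The RNA came from K562, a human cell line from a chronic myeloid leukaemia that carries the BCR-ABL1 fusion kinase in all groups. Cells had been given 0.05 µM nilotinib (AMN107), 0.5 µM imatinib (STI571) or the solvent DMSO for 24 h, with 4 arrays each. Nilotinib and imatinib both inhibit the ABL1 kinase, at doses here that differ, and the nilotinib dose is labelled as an IC50. Arrays are named by the sample numbers of their titles: nilotinib 1 to 4, imatinib 5 to 8 and DMSO 9 to 12. Separate cultures are not stated in the labels, and the p-values therefore reflect only how far these samples spread, which could be technical.

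Per the labels, RNA was labelled through a one-cycle amplification from the 3′ end. Clustered signals could come from stem-loop mRNAs or from other forms of their RNA, which these signals cannot tell apart. Changes given below are therefore changes of signal. Signals were compared as log2(signal + 16), which understates the change of dim probe sets, and precision is limited by 4 arrays a group. Of the 88 probe sets, 69 (48 clustered and 21 variant) passed a filter on mean level, at a signal of about 80.6, and were tested among 13329 probe sets. A probe set is called higher or lower where limma's moderated test gave a Benjamini-Hochberg adjusted p under 0.05 over those 13329. Levels were not compared between probe sets.

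Whole-array measures differed between the groups and touch every result below. The median signal of all probe sets was 166 to 194 on nilotinib arrays, 135 to 155 on imatinib arrays and 117 to 121 on DMSO arrays. The 5′ control probe set for 28S ribosomal RNA, an RNA without a poly(A) tail, averaged 24015 ± 2137 with nilotinib, 20453 ± 1241 with imatinib and 5431 ± 135 with DMSO (SD, n = 4 each). The middle control probe set for it averaged 4959, 4845 and 1509 in the same order. The dim 3′ one averaged 114, 55.8 and 76.2, and its groups overlapped. Bacterial spike control signals, as a median per array, averaged 18.7, 8.94 and 7.40 in the same groups. They ranged from 8.89 to 27.0 with nilotinib, 6.25 to 11.2 with imatinib and 5.60 to 8.79 with DMSO, so imatinib overlapped both others. The part of these differences in the histone results was not tested. Of 12 markers of K562, 8 had a probe set of their own, all passed the filter, and 7 of 8 were higher with each drug. Of 13 markers of lymphocytes, monocytes, granulocytes and fibroblasts, 11 had a probe set and 5 passed the filter, and the highest group mean of the 11 was 329. Between replicates, Pearson correlations of log2 values over the tested probe sets were 0.937 to 0.958 for nilotinib, 0.966 to 0.971 for imatinib and 0.974 to 0.980 for DMSO.

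Clustered histone probe sets split in both directions with nilotinib and leaned lower with imatinib, and the split with nilotinib depended on scaling. Against DMSO, 14 of the 48 tested were higher and 15 were lower with nilotinib, where 33.9% of all tested probe sets were higher and 21.5% lower. With imatinib, 7 were higher and 17 lower, where 20.0% and 15.5% of all tested probe sets were. The median change of the clustered set was 0.04 with nilotinib and -0.15 with imatinib, beside 0.17 and 0.10 over all tested probe sets. With nilotinib, quantile normalization gave 7 higher and 16 lower (median -0.16) and centring each array on its median gave 4 higher and 22 lower (median -0.48). Both comparisons use the same DMSO arrays. Of variant probe sets, 5 were higher and 8 lower of 21 with nilotinib, and 6 were higher and 6 lower with imatinib. Their medians were -0.07 and 0.17. All but 6 of the 21 had a mean signal of at least 1000. Over all probe sets at that level, 41.9% were lower and 27.1% higher with nilotinib, and 29.3% lower and 25.3% higher with imatinib. The variant counts were near these shares.

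**Figure D1:**
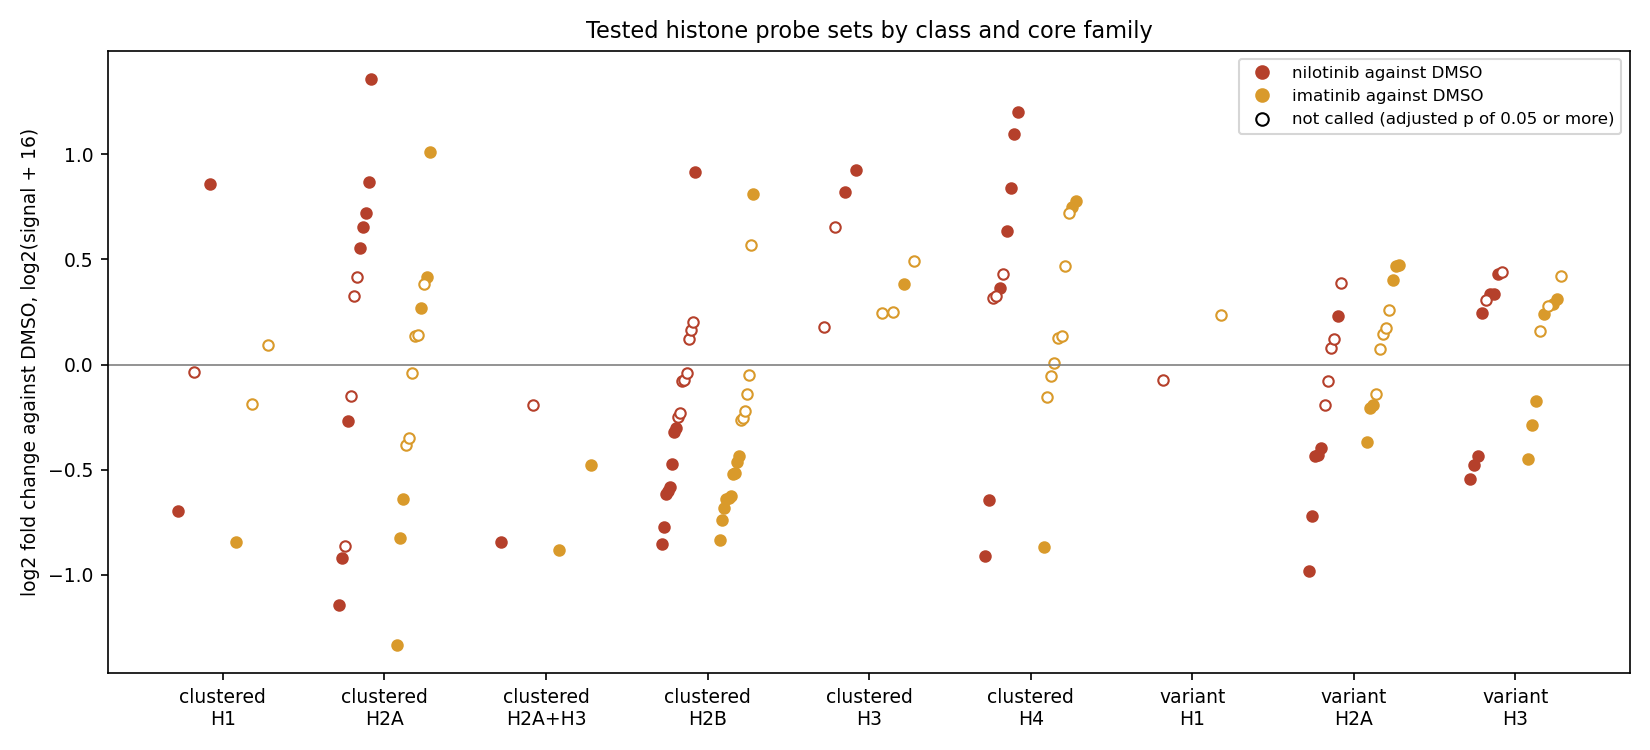
Log2 fold change against DMSO (vertical axis, log2(signal + 16)) of the 69 tested histone probe sets by class and core family, with nilotinib left and imatinib right within each family. Filled points were called and open points were not. Clustered H2B lies mostly below 0 (medians -0.25 and -0.46), clustered H3 above 0, and the 2 probe sets naming both H2A and H3 genes below 0.

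Counts by core family stand beside shares over all tested probe sets of 33.9% higher and 21.5% lower with nilotinib. With imatinib these shares were 20.0% and 15.5%. Some counts were near them, among them those of clustered H2A with nilotinib and of H4 with imatinib. Those of clustered H3 and H1 rest on 4 and 3 probe sets. Of 17 tested probe sets of clustered H2B, 8 were lower and 1 higher with nilotinib, and 10 were lower and 1 higher with imatinib. Of 12 of clustered H2A, 5 were higher and 3 lower with nilotinib, and 3 were higher and 3 lower with imatinib. Of 10 of H4, 5 were higher and 2 lower with nilotinib, and 2 were higher and 1 lower with imatinib. Of 4 of clustered H3, 2 were higher with nilotinib and 1 with imatinib, and 0 were lower. Of 3 of clustered H1, 1 was higher and 1 lower with nilotinib, and 1 was lower with imatinib. The H2B median was also below 0 with quantile normalization (-0.29 and -0.48) and with each array centred on its median (-0.77 and -0.69). The medians of clustered H2A and H4 with nilotinib turned to -0.15 and -0.12 with median centring, which moved the median of all tested probe sets to -0.35. Quantile normalization and median centring each left 1 H4 probe set higher and 2 lower with nilotinib.

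Counts of clustered probe sets in each direction differed with their mean signal. Of the 19 clustered probe sets with a mean signal of at least 1000, 12 were lower and 3 higher with nilotinib, and 14 were lower and 2 higher with imatinib. Over all probe sets at that level, 41.9% were lower and 27.1% higher with nilotinib, and 29.3% were lower and 25.3% higher with imatinib. Of 29 tested clustered probe sets under 1000, 11 were higher and 3 lower with nilotinib, and 5 were higher and 3 lower with imatinib. The all-probe-set shares there were 36.3% higher and 14.5% lower with nilotinib, and 18.1% higher and 10.7% lower with imatinib. These levels were chosen after the values were seen.

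Between 5000 and 15000, the 5 clustered probe sets had a median change of -0.70 with nilotinib and -0.64 with imatinib. The 481 probe sets of all kinds in that range had medians of -0.13 and -0.00. Between 1000 and 5000, the 13 clustered probe sets had medians of -0.30 and -0.52, beside -0.13 and -0.03 for 2790 probe sets of all kinds. The brighter clustered probe sets therefore had medians below those of all probe sets at the same level with both drugs.

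**Figure D2:**
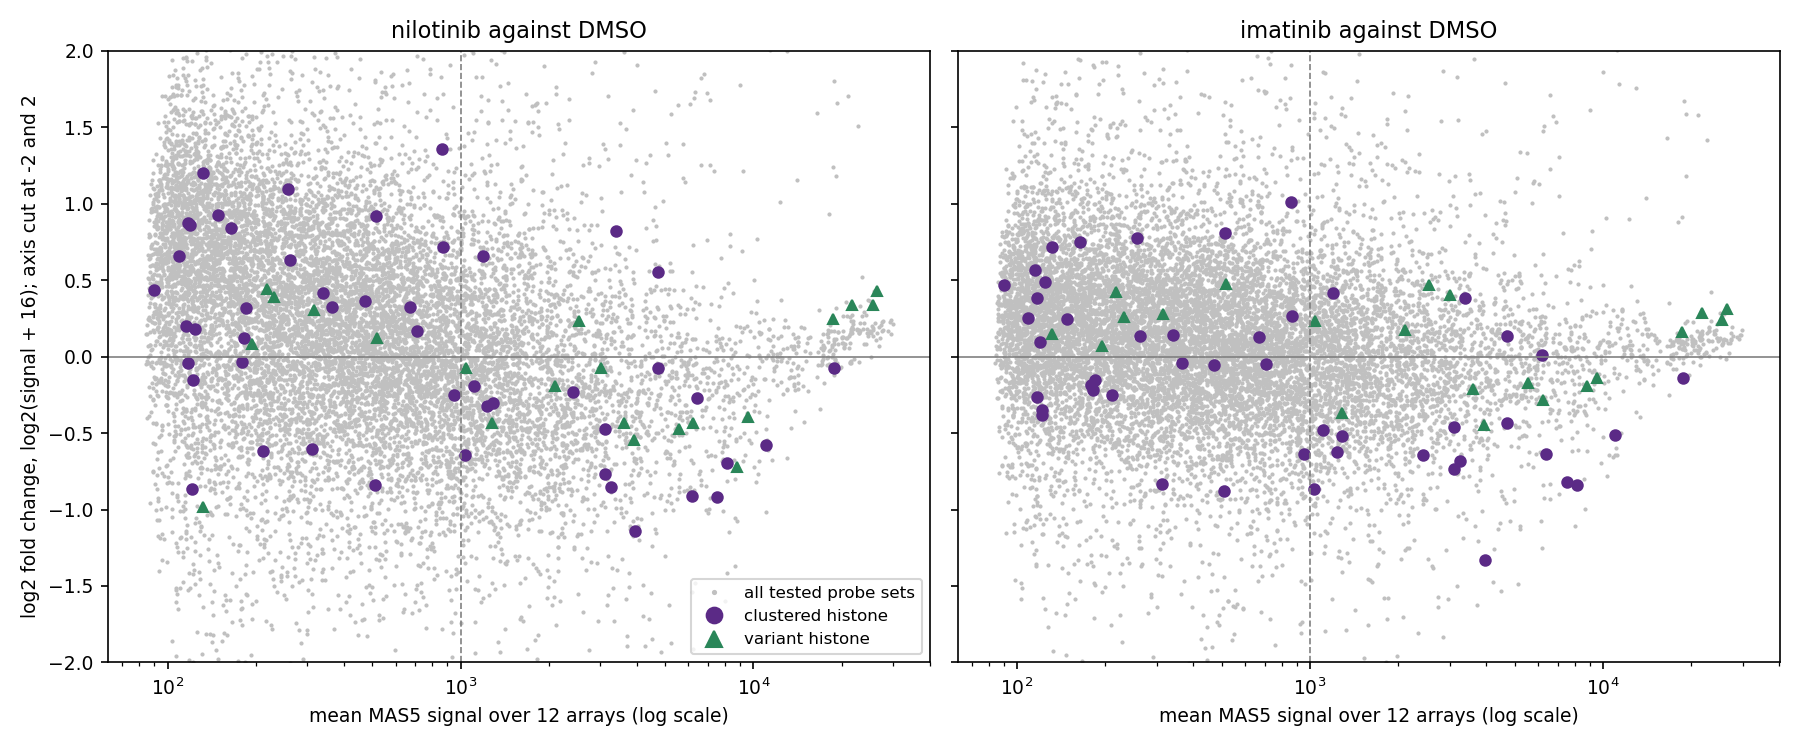
Log2 fold change against DMSO (vertical axis, log2(signal + 16), shown between -2 and 2) against mean MAS5 signal over 12 arrays (horizontal, log scale), for nilotinib on the left and imatinib on the right. Grey points are all 13329 tested probe sets, circles clustered and triangles variant histones, and the dashed line marks a signal of 1000. Right of it most circles lie below 0 (12 of 19 called lower with nilotinib and 14 with imatinib), and between 1000 and 15000 the grey cloud with nilotinib also leans lower (medians of -0.13).

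Promoters of histone genes whose own probe sets moved are shown for orientation, since transcription of these genes starts from compact promoters with known elements. The sequences are RefSeq's for GRCh38.p14, 200 bases that end at the base before the annotated start, read 5′ to 3′ on the gene's strand. Capitals mark CCAAT, the octamer ATTTGCAT and TATAAA, each searched separately on both strands. H1-2, H2AC6 and H2BC21 were lower with both drugs, H2AC17 and H2AC8 were higher with both, and H2AZ1 is a variant gene that was lower with nilotinib.
H1-2, chr6:26056471-26056670, minus strand: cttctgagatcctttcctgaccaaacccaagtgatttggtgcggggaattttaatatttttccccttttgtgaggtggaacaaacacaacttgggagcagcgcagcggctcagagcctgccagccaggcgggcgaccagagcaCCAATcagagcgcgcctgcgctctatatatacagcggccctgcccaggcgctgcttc
H2AC6, chr6:26123972-26124171, plus strand: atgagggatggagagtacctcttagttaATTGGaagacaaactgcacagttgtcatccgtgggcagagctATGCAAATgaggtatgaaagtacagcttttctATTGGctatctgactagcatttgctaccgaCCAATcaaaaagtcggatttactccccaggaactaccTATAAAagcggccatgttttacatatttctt
H2BC21, chr1:149886683-149886882, minus strand: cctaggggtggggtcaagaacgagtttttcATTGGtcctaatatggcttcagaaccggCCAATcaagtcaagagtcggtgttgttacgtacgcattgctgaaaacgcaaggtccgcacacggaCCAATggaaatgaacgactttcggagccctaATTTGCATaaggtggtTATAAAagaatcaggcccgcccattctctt
H2AC17, chr6:27893186-27893385, minus strand: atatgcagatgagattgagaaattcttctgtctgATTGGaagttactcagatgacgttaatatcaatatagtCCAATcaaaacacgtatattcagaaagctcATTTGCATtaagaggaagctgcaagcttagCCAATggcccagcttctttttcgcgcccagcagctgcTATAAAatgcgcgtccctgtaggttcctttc
H2AC8, chr6:26216721-26216920, plus strand: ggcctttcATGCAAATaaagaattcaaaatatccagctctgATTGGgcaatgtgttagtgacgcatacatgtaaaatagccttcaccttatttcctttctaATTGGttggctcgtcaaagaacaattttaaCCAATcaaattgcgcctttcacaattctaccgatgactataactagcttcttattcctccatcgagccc
H2AZ1, chr4:99950276-99950475, minus strand: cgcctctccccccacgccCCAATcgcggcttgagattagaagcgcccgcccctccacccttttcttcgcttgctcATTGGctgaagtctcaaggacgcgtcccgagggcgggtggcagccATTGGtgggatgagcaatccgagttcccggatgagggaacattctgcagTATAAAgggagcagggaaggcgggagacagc
The octamer and CCAAT stand in H2AC6 and H2BC21, as in H2AC17 and H2AC8. The other letters differed: H1-2 holds CCAAT but neither the octamer nor TATAAA, and H2AC8 holds no TATAAA. Over the 250 bases before the start, CCAAT was found in 82.1% of 56 clustered histone genes with a sequence, in 75.0% of 12 variant genes and in 32.0% of 34943 promoters of all genes. The octamer was found in 80.0% of 15 H2B, 61.5% of 13 H2A, 11.1% of 9 H3 and 0 of 13 H4 promoters, and in 1.63% of all promoters. TATAAA was found in 64.3% of clustered genes, 33.3% of variant genes and 10.8% of all promoters. Of the 75 named genes, 68 had a promoter in the table, and a match is a description, not a site or a cause.

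H1-2, which encodes a linker histone, fell with both drugs. It had signals of 6773, 6993, 7313 and 6568 on nilotinib arrays, 6384, 5600, 6478 and 6562 on imatinib arrays and 10390, 11980, 11498 and 11035 on DMSO arrays. Every drug array lay below every DMSO array. The log2 change was -0.70 ± 0.07 with nilotinib (SE, limma adjusted p = 9.9e-08) and -0.84 ± 0.07 with imatinib (adjusted p = 1.4e-08). In each case the call held in all 21 alternative settings. These settings, here and below, leave out the fit with 1 probe set per gene. H1-4, another linker histone, was called higher with nilotinib (0.86, limma adjusted p = 0.033) and not called with imatinib (0.10, adjusted p = 0.85). The nilotinib call was lost in 9 of 20 settings, among them those without nilotinib 1 or 2 or DMSO 9, 10 or 11.

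Clustered H2A histones included the largest drop among all tested histone probe sets with each drug. Probe set 218280_x_at, which names the near-identical pair H2AC18 and H2AC19, had 2891, 2907, 3033 and 2736 on nilotinib arrays, 2547, 2283, 2656 and 2651 on imatinib arrays and 5988, 6235, 6260 and 7162 on DMSO arrays. The changes were -1.14 ± 0.07 and -1.33 ± 0.07 (SE, limma adjusted p = 3.4e-10 and 7.3e-11). A second probe set of the pair, 214290_s_at, had 5527, 5597, 6061 and 5562 with nilotinib, 6521, 5149, 6527 and 6217 with imatinib and 10031, 10966, 10570 and 11521 with DMSO. It fell by 0.92 with nilotinib and by 0.82 with imatinib on the log2 scale. The remaining one, dim, had -0.15 and -0.35 and was not called. The calls of the first and second held in all 21 settings.

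H2AC6, an H2A gene on chromosome 6, fell less with nilotinib than with imatinib. Its signals were 6561, 6298, 6378 and 6550 with nilotinib, 5723, 4773, 4705 and 4818 with imatinib and 7709, 8101, 7867 and 7407 with DMSO, and no array of 1 group reached those of another. The change was -0.27 ± 0.07 with nilotinib (limma adjusted p = 0.0024) and -0.64 ± 0.07 with imatinib (adjusted p = 4.9e-07). Quantile normalization ended the nilotinib call at -0.10. Probe set 214522_x_at, which names H2AC7 and H3C4, had 477, 301, 561 and 308 with nilotinib, 418, 497, 366 and 293 with imatinib and 683, 738, 730 and 749 with DMSO. It fell with both drugs, by 0.84 and by 0.88, in all 21 settings.

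Other H2A probe sets rose. H2AC17 had 1126, 1279, 1270 and 1090 with nilotinib, 1135, 842, 804 and 973 with imatinib and 500, 445, 474 and 402 with DMSO. All drug arrays lay above all DMSO arrays, and the change was 1.36 ± 0.11 with nilotinib (limma adjusted p = 1.9e-08) and 1.01 ± 0.11 with imatinib (adjusted p = 1.5e-06). It was called in all 21 settings. H2AC8, singled out after its values were seen, had 1020, 1161, 1190 and 1100 with nilotinib, 901, 698, 872 and 794 with imatinib and 658, 680, 636 and 717 with DMSO. It rose by 0.72 with nilotinib and by 0.27 with imatinib, where the call was lost in 9 of 21 settings, among them those without imatinib 5, 7 or 8 and without DMSO 9, 10 or 11. Probe set 207156_at, which names 6 H2A genes including H2AC17, rose by 0.66 and by 0.42. Median centring ended the calls of H2AC8 with both drugs, at 0.20 and 0.04, and those of 207156_at, at 0.13 and 0.19.

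**Figure D3:**
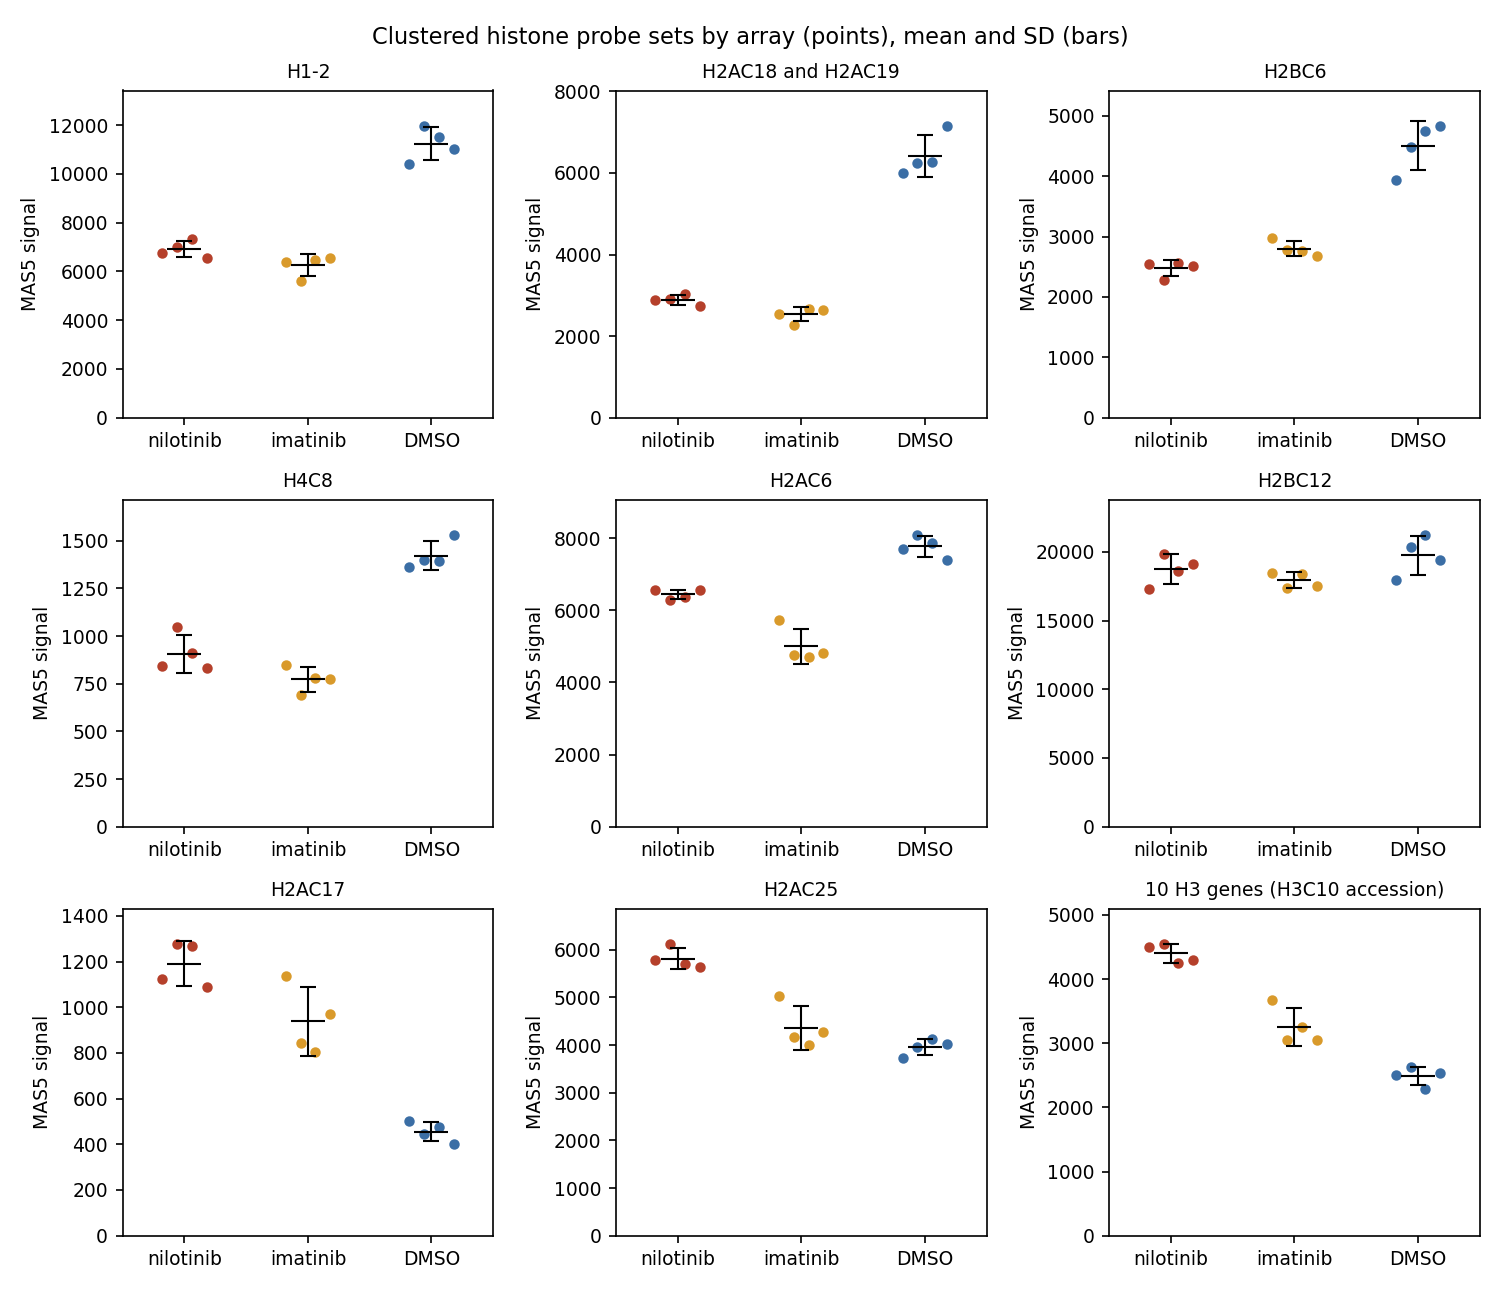
MAS5 signal (vertical axes, from 0) of 9 clustered histone probe sets on each array, with nilotinib left, imatinib in the middle and DMSO right. Points are arrays and bars are the mean and SD of 4 arrays. H1-2, H2AC18 and H2AC19, H2BC6, H4C8 and H2AC6 lie lower with both drugs, H2BC12 overlaps, and H2AC17 and the H3 probe set lie higher with both.

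H2B was the family with the most lower calls. H2BC6 had 2549, 2288, 2563 and 2520 with nilotinib, 2971, 2775, 2761 and 2686 with imatinib and 3944, 4486, 4755 and 4840 with DMSO. It fell by 0.85 (limma adjusted p = 2.4e-08) and by 0.68 (adjusted p = 7.7e-07), with no overlap of drug and DMSO arrays. H2BC21, on chromosome 1, had 1103, 1270, 1121 and 1354 with nilotinib, 914, 964, 956 and 1082 with imatinib and 1554, 1525, 1554 and 1427 with DMSO. It fell by 0.32 and by 0.62, and both calls held in all 21 settings. H2BC9 and H2BC12L, the 1 clustered member on chromosome 21, fell with both drugs too, by 0.47 and 0.58 with nilotinib and by 0.46 and 0.51 with imatinib. H2BC6, H2BC9 and H2BC12L were named after their values were seen, and their probe sets carry the suffix of probes shared between similar sequences. Over all clustered families 13 tested probe sets carry it, with 7 lower and 1 higher with nilotinib, and 9 lower and 0 higher with imatinib. Of the 35 without it, 8 were lower and 13 higher with nilotinib, and 8 lower and 7 higher with imatinib. Over all tested probe sets, 21.5% were lower and 33.9% higher with nilotinib, and 15.5% lower and 20.0% higher with imatinib. The counts without the suffix were near these shares, apart from the lower count with imatinib. The medians were -0.30 and -0.51 with the suffix and 0.18 and 0.01 without it. Probe sets with the suffix may read the same mRNAs, so their calls are not separate observations.

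H2BC12, an H2B gene on chromosome 6, was not called with either drug at the deposited scaling. It had 17296, 19886, 18637 and 19110 with nilotinib, 18493, 17366, 18374 and 17518 with imatinib and 17987, 20373, 21269 and 19426 with DMSO, and the groups overlapped. The change was -0.08 with nilotinib (95% interval -0.21 to 0.06) and -0.14 with imatinib (-0.27 to -0.00). Both were called lower with quantile normalization (-0.21 and -0.27) and with median centring (-0.60 and -0.36), and that with imatinib also without DMSO 9 (-0.18). Over the 155 probe sets of all kinds with a mean of at least 15000, the medians were 0.15 and 0.10. In the other direction, 210387_at, which names H2BC11 and H2BC8, had 753, 623, 672 and 489 with nilotinib, 616, 542, 625 and 544 with imatinib and 383, 324, 286 and 311 with DMSO. It rose by 0.92 and by 0.81 in all 21 settings. A second probe set of the same pair, 215779_s_at, had -0.25 with nilotinib, which was not called, and fell by 0.64 with imatinib, so probe sets naming the same genes disagreed.

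H2AC17 and H2BC17 start 240 bases apart on opposite strands of chromosome 6 and had opposite calls with both drugs. H2BC17, looked up after its values were seen, had 323, 383, 249 and 175 with nilotinib, 251, 202, 237 and 228 with imatinib and 422, 366, 389 and 521 with DMSO. It fell by 0.60 with nilotinib (limma adjusted p = 0.016) and by 0.84 with imatinib (adjusted p = 0.0029), while H2AC17 rose. The nilotinib call was lost without nilotinib 4 and without DMSO 12. Of 10 pairs of histone genes on opposite strands within 1000 bases, 4 had a probe set of their own on both sides. For H2AC14 and H2BC14 neither gene was called, H2AC15 was not tested, and H3C7 was higher with nilotinib while H2BC9, 979 bases away, was lower.

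The 4 tested probe sets that name clustered H3 genes and no H2A gene rose or were not called. Probe set 206110_at, which names 10 H3 genes and carries the RefSeq accession of H3C10, had 4502, 4553, 4245 and 4297 with nilotinib, 3676, 3047, 3248 and 3057 with imatinib and 2497, 2635, 2292 and 2528 with DMSO. The 3 groups did not overlap. It rose by 0.82 with nilotinib (limma adjusted p = 3.2e-08) and by 0.38 with imatinib (adjusted p = 0.00037), where median centring ended the imatinib call at 0.16. H3C7 had 233, 217, 235 and 162 with nilotinib, 122, 71.5, 156 and 175 with imatinib and 108, 109, 92.1 and 104 with DMSO. It was higher with nilotinib (0.92, adjusted p = 0.0056), a call that quantile normalization and median centring ended. Probe set 214472_at, which names H3 and H2A genes together, had -0.19 with nilotinib, not called, and fell by 0.48 with imatinib in all 21 settings.

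H4 genes went both ways. H4C8 had 842, 1047, 909 and 832 with nilotinib, 848, 688, 781 and 773 with imatinib and 1360, 1401, 1393 and 1532 with DMSO, and fell by 0.64 and by 0.87 in all 21 settings. H4C5 had 252, 442, 324 and 367 with nilotinib, 335, 199, 325 and 242 with imatinib and 174, 151, 138 and 141 with DMSO, and rose by 1.09 and by 0.78 in all 21 settings. H4C8 and H4C5 thus moved in opposite directions with both drugs. Probe set 205967_at, which names 14 H4 genes and carries the accession of H4C3, changed with 1 drug: it had 3213, 5207, 4103 and 3137 with nilotinib, 6184, 7469, 6517 and 9165 with imatinib and 6586, 8848, 7837 and 5899 with DMSO. It fell by 0.91 with nilotinib (limma adjusted p = 8.0e-05) and had 0.01 with imatinib (95% interval -0.31 to 0.33). The other tested probe sets naming these 14 genes had changes of 0.32 to 0.84 with nilotinib.

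Among dim probe sets, H4C9 had 136, 198, 146 and 278 with nilotinib, 140, 144, 169 and 72.6 with imatinib and 80.9, 88.9, 32.9 and 95.6 with DMSO. The H2A gene H2AC4 had 158, 200, 133 and 148 with nilotinib, 91.8, 120, 109 and 114 with imatinib and 105, 42.6, 79.7 and 106 with DMSO. H4C9 and H2AC4 were higher with nilotinib, by 1.20 and 0.87, and had 0.72 and 0.38 with imatinib, not called. Quantile normalization and median centring ended both nilotinib calls, and that of H2AC4 was also lost without DMSO 10. H2AC16 had 124, 13.3, 75.3 and 172 with nilotinib, 122, 83.2, 119 and 130 with imatinib and 134, 136, 130 and 217 with DMSO. Its groups overlapped, and its changes of -0.86 and -0.38 were not called. With nilotinib it was -0.32 without nilotinib 2, and was called lower without nilotinib 4 (-1.21), with quantile normalization and with median centring (-1.39 each).

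Among the variants, H2AZ1, which encodes the H2A.Z of gene starts and other dynamic nucleosomes, fell mainly with nilotinib. Its probe set 200853_at had 6598, 6723, 6360 and 6130 with nilotinib, 8633, 10148, 9147 and 9409 with imatinib and 9462, 11150, 11515 and 10517 with DMSO. Nilotinib arrays lay below all others, and the change was -0.72 ± 0.07 (SE, limma adjusted p = 1.2e-07). With imatinib it was -0.19 ± 0.07 (adjusted p = 0.042), a call lost in 12 of 21 settings, among them those without nilotinib 3, imatinib 5, 7 or 8, or DMSO 10, 11 or 12. A second probe set, 213911_s_at, had 8763, 8164, 7948 and 7725 with nilotinib, 9575, 10046, 10190 and 9170 with imatinib and 9818, 11776, 11523 and 9966 with DMSO. It fell by 0.40 with nilotinib and had -0.14 with imatinib, not called.

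H2AZ2, the second H2A.Z gene, did not fall with either drug. Its probe set 212205_at had 2788, 2837, 2476 and 2384 with nilotinib, 3714, 3997, 3376 and 3533 with imatinib and 2922, 2660, 2674 and 2784 with DMSO. Imatinib arrays lay above all others. The change was -0.08 with nilotinib (95% interval -0.24 to 0.08) and 0.40 with imatinib (limma adjusted p = 0.00038). The second, 202487_s_at, had 2300, 2437, 2628 and 2695 with nilotinib, 2881, 2838, 3166 and 2996 with imatinib and 2368, 1992, 2065 and 2144 with DMSO. The last, 212206_s_at, had 498, 439, 564 and 438 with nilotinib, 547, 631, 616 and 700 with imatinib and 486, 393, 448 and 449 with DMSO. All 3 H2AZ2 probe sets were higher with imatinib, by 0.40 to 0.47, and median centring left 1 of 3 called. With nilotinib 202487_s_at was higher, a call lost without nilotinib 4 and without DMSO 10, and median centring turned all 3 lower, with a median of -0.40.

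MACROH2A1, which encodes the large histone macroH2A1 known from silenced chromatin, fell with nilotinib by all 3 of its probe sets. Probe set 207168_s_at had 3119, 3319, 2812 and 3089 with nilotinib, 3572, 3789, 3543 and 3495 with imatinib and 4003, 4170, 4359 and 4118 with DMSO. The 3 groups did not overlap, and it fell by 0.43 (limma adjusted p = 2.4e-05) and by 0.21 (adjusted p = 0.018). The imatinib call was lost with quantile normalization, without a variance trend and without DMSO 11. The dim 214500_at had 58.5, 90.7, 116 and 31.7 with nilotinib, 183, 141, 147 and 210 with imatinib and 147, 128, 161 and 167 with DMSO. It fell by 0.98 with nilotinib and had 0.15 with imatinib. The other, 214501_s_at, had 1017, 1125, 1252 and 1105 with nilotinib, 928, 1164, 1111 and 1584 with imatinib and 1355, 1607, 1649 and 1482 with DMSO. It fell by 0.43 and by 0.37, and the imatinib call was lost in 8 of 21 settings, among them those without imatinib 5, 6 or 7 or DMSO 10 or 11.

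**Figure D4:**
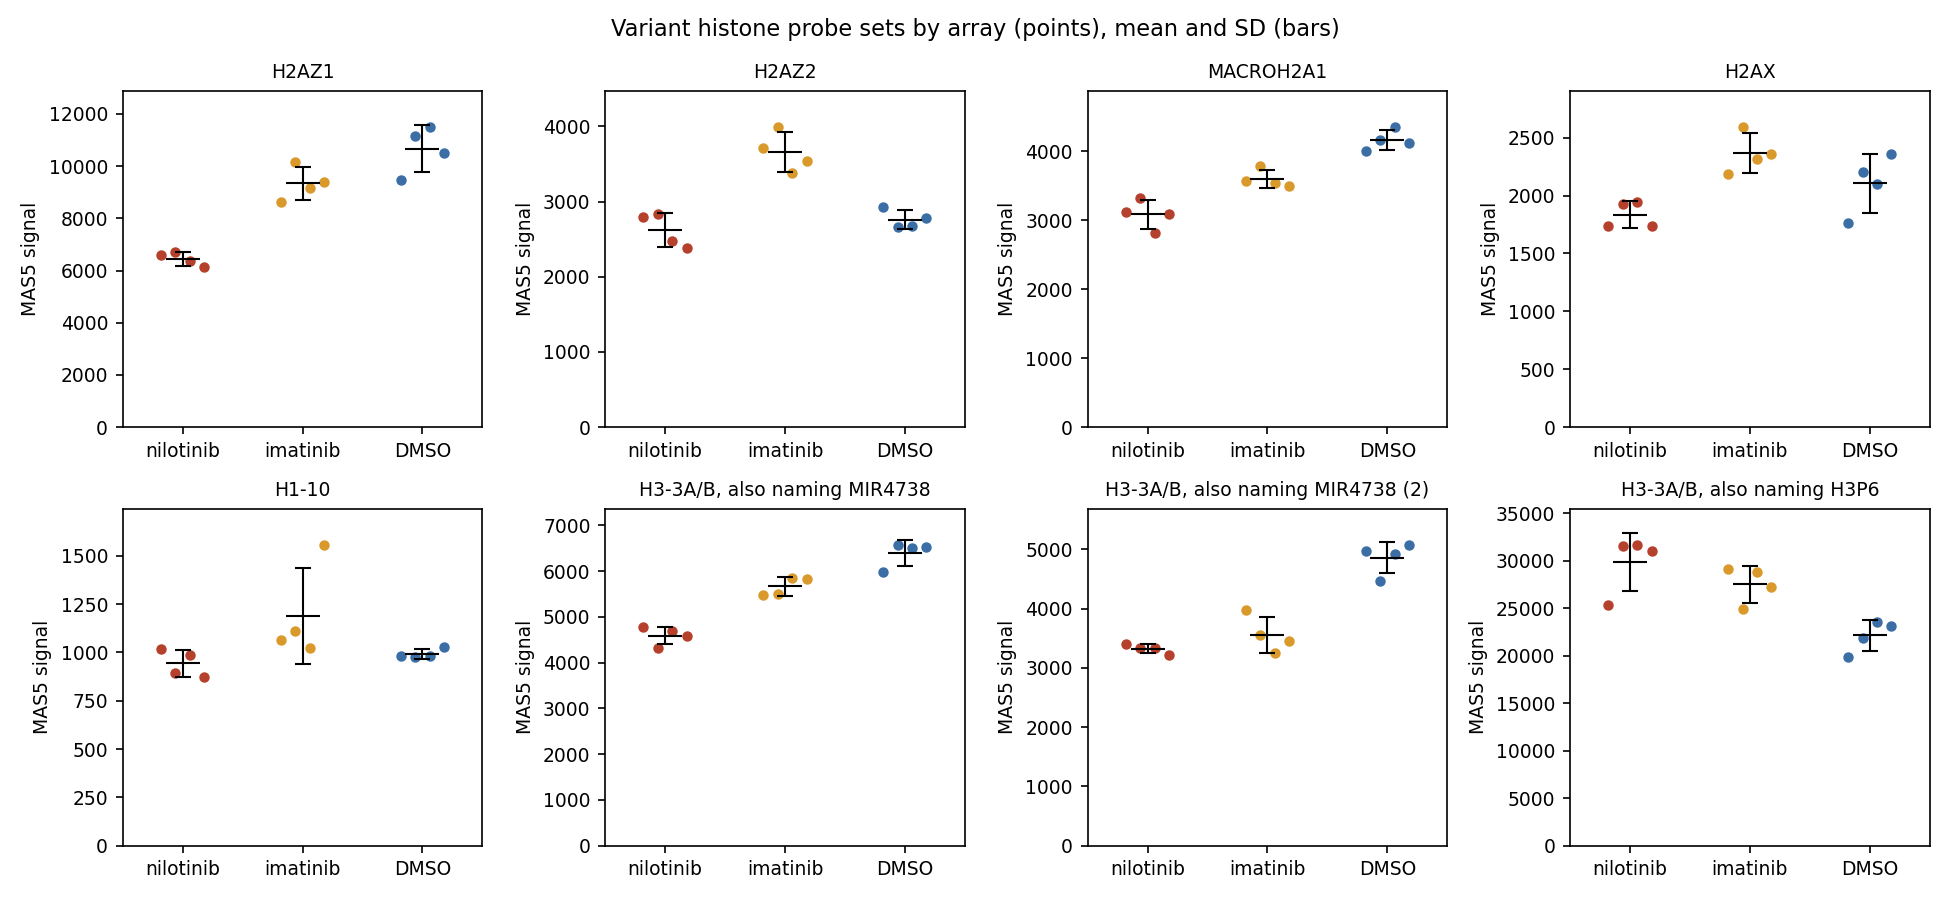
MAS5 signal (vertical axes, from 0) of 8 variant histone probe sets on each array, with nilotinib left, imatinib in the middle and DMSO right. Points are arrays and bars are the mean and SD of 4 arrays. H2AZ1, MACROH2A1 and the H3-3 probe sets shown here that also name MIR4738 lie lower with nilotinib than with DMSO. H2AZ2 lies higher with imatinib, and the H3-3 probe set that also names H3P6 lies higher with both drugs.

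H2AX, whose protein is phosphorylated around DNA breaks, had 1735, 1929, 1946 and 1735 with nilotinib, 2188, 2596, 2320 and 2361 with imatinib and 1762, 2203, 2098 and 2359 with DMSO. Its changes against DMSO, -0.19 and 0.17, were not called. Of its other probe sets, 212525_s_at and 213344_s_at were not called in any comparison. H1-10, a linker histone variant, had 1020, 896, 985 and 875 with nilotinib, 1065, 1108, 1022 and 1556 with imatinib and 984, 979, 979 and 1031 with DMSO, and was not called in any comparison. H2AX 212524_x_at and the probe sets of H2AJ, of MACROH2A2 and of H2AB1, H2AB2 and H2AB3 lay below the filter.

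H3-3A and H3-3B encode the same protein, H3.3, from separate genes, and their probe sets fell into 2 kinds. The 4 that also name MIR4738 were lower in 3 cases with each drug. Of them 211999_at had 3408, 3330, 3333 and 3215 with nilotinib, 3968, 3551, 3251 and 3459 with imatinib and 4970, 4472, 4927 and 5071 with DMSO. It fell by 0.55 (limma adjusted p = 3.2e-06) and by 0.45 (adjusted p = 4.7e-05) in all 21 settings. Probe set 209069_s_at had 4772, 4322, 4689 and 4593 with nilotinib, 5490, 5500, 5856 and 5820 with imatinib and 5973, 6571, 6504 and 6539 with DMSO. It fell by 0.48 and by 0.17, and the imatinib call was lost in 8 of 21 settings, among them those without imatinib 5 or 6 or DMSO 10, 11 or 12. Probe set 211997_x_at had 5857, 4620, 5633 and 5494 with nilotinib, 5457, 5503, 6809 and 6181 with imatinib and 7139, 6737, 7757 and 7502 with DMSO. It fell by 0.43 and by 0.29, with the imatinib call lost in 2 of 21 settings.

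The 4 probe sets that also name the pseudogene H3P6 were higher with nilotinib in 4 of 4 cases and with imatinib in 3 of 4. Of them 208755_x_at had 25295, 31559, 31642 and 31005 with nilotinib, 29088, 24872, 28794 and 27281 with imatinib and 19890, 21875, 23572 and 23169 with DMSO. It rose by 0.43 (limma adjusted p = 0.00019) and by 0.31 (adjusted p = 0.0045). All 4 have mean signals of at least 15000, where the 155 probe sets of all kinds had medians of 0.15 and 0.10. With median centring the 4 had a median of -0.19 with nilotinib and 0.04 with imatinib. Probe set 213826_s_at, which names H3-3A alone, had 268, 256, 208 and 227 with nilotinib, 190, 289, 308 and 179 with imatinib and 153, 180, 159 and 198 with DMSO. Its changes of 0.44 and 0.42 were not called.

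Between the drugs, given at different doses, more clustered probe sets were higher than lower and more variant ones lower than higher, at the deposited scaling. Of 48 clustered probe sets, 8 were higher and 1 was lower with nilotinib than with imatinib, where 4.85% of all tested probe sets were higher and 6.65% lower. Of 21 variant probe sets, 8 were lower and 0 were higher by limma's adjusted p, and 0 were higher at an unadjusted p under 0.05. At a mean signal of at least 1000, 19.4% of all tested probe sets were lower and 4.96% higher. The medians were 0.23 for clustered, -0.15 for variant and 0.06 for all tested probe sets. With median centring both classes leaned lower, with 0 higher and 8 lower of the clustered (median -0.07) and 0 higher and 16 lower of the variant (median -0.45). Of the calls at the deposited scaling, 0 of 8 higher clustered, 1 of 1 lower clustered and 3 of 8 lower variant held in every counted setting.

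H2AC25, an H2A gene on chromosome 1 described after its values were seen, separated the drugs among clustered genes. It had 5777, 6131, 5692 and 5649 with nilotinib, 5034, 4159, 3995 and 4277 with imatinib and 3732, 3961, 4125 and 4014 with DMSO. Nilotinib arrays lay above all others, and the difference between the drugs was 0.42 (95% interval 0.27 to 0.57, limma adjusted p = 0.0014). Against DMSO it rose by 0.55 with nilotinib and had 0.14 with imatinib, not called. H2AC8 was higher by 0.45, 206110_at of the H3 genes by 0.44 and H2AC6 by 0.37 with nilotinib than with imatinib. Median centring ended all 4 of these differences. The 1 lower clustered probe set was 205967_at of the H4 genes, with a difference of -0.92 (95% interval -1.24 to -0.59, adjusted p = 0.0012) that held in all 21 settings.

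Of the variants, H2AZ1 was lower with nilotinib than with imatinib by both probe sets, with differences of -0.53 (95% interval -0.68 to -0.38) and -0.26. H2AZ2 had -0.48 (-0.64 to -0.32), -0.24 and -0.36, of which the last was not called. H2AX had -0.36 (-0.55 to -0.18, limma adjusted p = 0.014), lost without a variance trend, without imatinib 6 and without the 4 arrays of highest actin ratio. The H3-3 probe set 209069_s_at had -0.30, and MACROH2A1 had -1.13, -0.22 and -0.07. The differences of 200853_at, 212205_at and 209069_s_at held in all 21 settings. That of 213911_s_at was lost without nilotinib 3 or 4 or imatinib 6 or 7, and that of 214500_at without nilotinib 4 or imatinib 5 or 8. That of 202487_s_at was lost in 14 of 21 settings, 9 of them with 1 array left out (each but nilotinib 4 and DMSO 9 and 10). That of 207168_s_at was lost in 9, among them those without nilotinib 3 or 4 or imatinib 5, 6 or 7. For H1-2 and H2BC12 the differences were 0.15 (0.00 to 0.29) and 0.06 (-0.07 to 0.19) and were not called, which does not show that the drugs act alike on them.

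**Figure D5:**
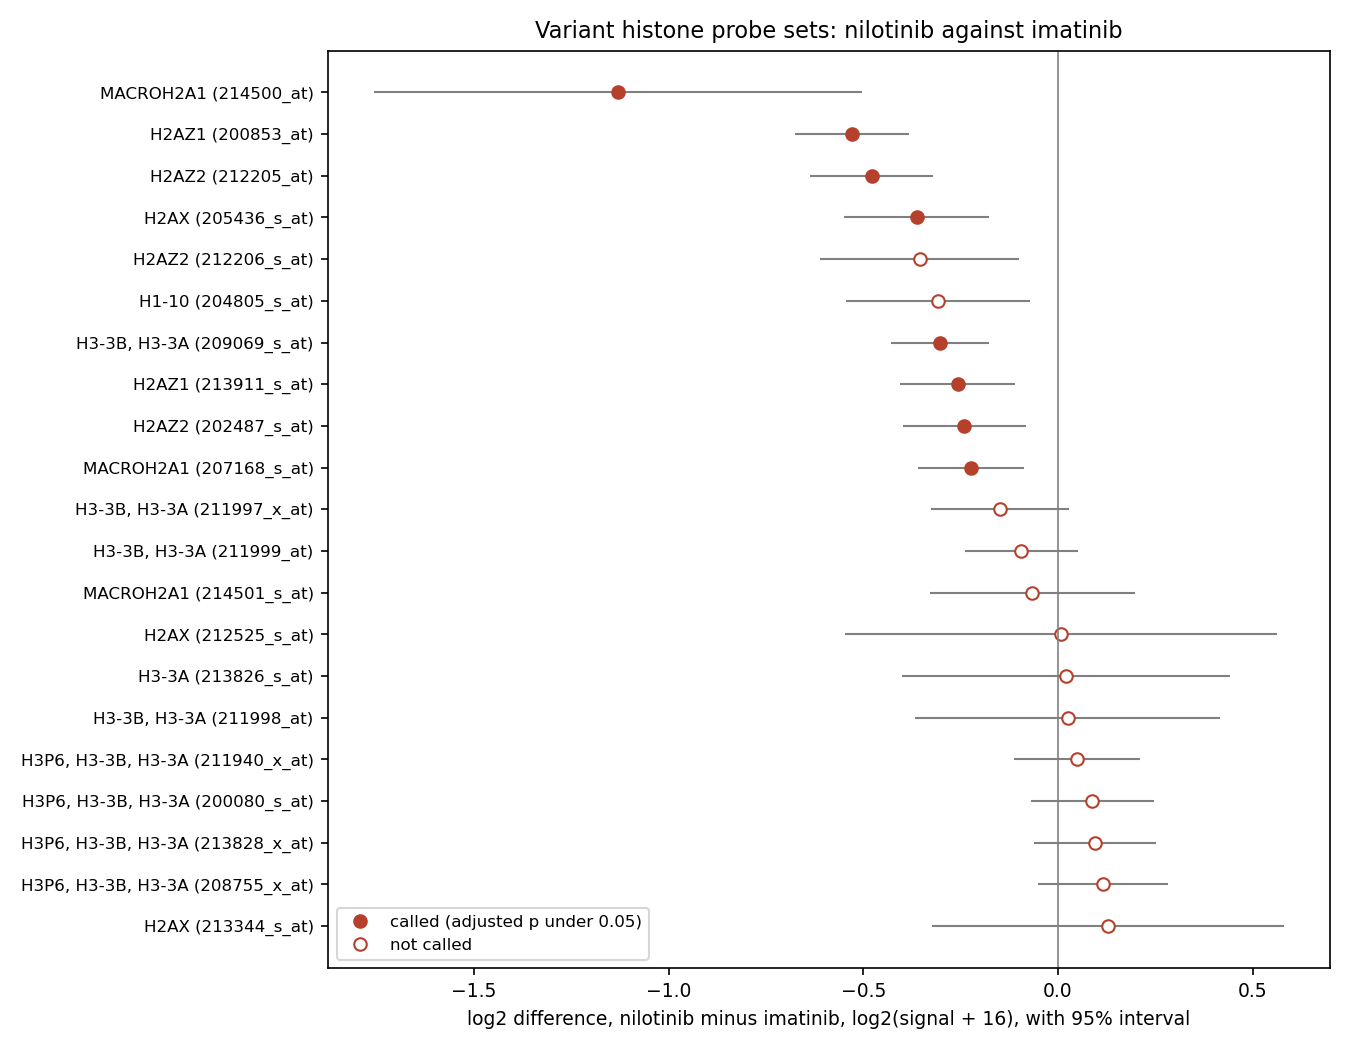
Difference in log2(signal + 16), nilotinib minus imatinib (horizontal axis), for the 21 tested variant histone probe sets, with lines for 95% intervals. Filled points were called and open points were not. The 8 called all lie left of 0, from MACROH2A1 (-1.13) to its second probe set (-0.22).

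The 19 histone probe sets below the filter had mean signals of 9.39 to 78.8 and were not tested. Their mean log2 difference from DMSO was above 0 in 15 with nilotinib and in 14 with imatinib, with medians of 0.71 and 0.48. At such levels the shift in dim signals between the groups, given above, also lies in these values, and its part was not tested.

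Among genes that make and mature histone mRNA, more were lower than higher with nilotinib. Of 29 listed genes, 23 had a probe set of their own and all were tested, with 11 lower and 3 higher with nilotinib, 7 lower and 4 higher with imatinib, and 8 lower with nilotinib than with imatinib. Over all tested probe sets 21.5% were lower and 33.9% higher with nilotinib, 15.5% and 20.0% with imatinib, and 6.65% lower between the drugs. The list holds bright and dim genes. At a mean signal of at least 1000, the shares lower were 41.9% with nilotinib, 29.3% with imatinib and 19.4% between the drugs. SLBP, which binds the stem loop, averaged 2307 ± 195 with nilotinib, 3171 ± 193 with imatinib and 3170 ± 180 with DMSO (SD, n = 4 each). It fell by 0.46 with nilotinib (limma adjusted p = 5.8e-05) and had 0.00 with imatinib. Sm proteins of spliceosomal and U7 particles were among the lower genes. SNRPB fell by 1.02 and by 0.65, and SNRPD3 by 0.99 and by 0.39. CASP8AP2, a cofactor of histone gene transcription in the histone locus body, rose by 0.27 and by 0.58, while NPAT, the activator found there, had 0.28 and 0.23 and was not called. The cyclin E genes CCNE1 and CCNE2 rose with imatinib, by 0.51 and by 0.73, and had 0.10 and 0.23 with nilotinib.

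Of 33 histone chaperones, importers and exchange factors, all tested, 12 were lower and 6 higher with nilotinib, and 5 were lower and 7 higher with imatinib. Beside the shares over all tested probe sets (15.5% lower and 20.0% higher with imatinib), the imatinib counts were near the background. With nilotinib those shares were 21.5% lower and 33.9% higher. At a mean signal of at least 1000 they were 41.9% lower and 27.1% higher with nilotinib, and this list too holds bright and dim genes. The median changes of the list were -0.12 and -0.03. RUVBL2, an ATPase of complexes that exchange H2A.Z, averaged 546 ± 53.1 with nilotinib, 751 ± 49.8 with imatinib and 1588 ± 87.2 with DMSO (SD, n = 4 each), and fell by 1.52 and by 1.07. Its partner RUVBL1 fell by 1.32 and by 0.83. HIRA, which deposits H3.3, fell by 0.48 and by 0.26. ATRX, of the other H3.3 pathway, rose by 0.55 and by 0.31, and ASF1B, which hands on newly made H3 and H4, rose with imatinib by 0.56 and had 0.08 with nilotinib. DNAJC9, a cochaperone of H3 and H4, rose by 0.56 and by 0.48.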

How the data were processed

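The table deposited by the authors holds linear intensity signals. MAS5 is the tool that the submitters' processing notes name, and no version is given in the sources used here. Leaving out its 2% tails, the mean of each array was about 500.1, so arrays had been scaled before deposit, and values were used as deposited. Probe sets came from 12 arrays mapped to 3 groups by title, and 0 columns were left unmapped. Of 22277 probe sets, 62 controls were left out.

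Members were found through the platform annotation, with symbols updated by gene identifier. Of 22215 probe sets, 19064 named 1 gene, 1043 several and 2108 none. The members and gene lists were chosen with earlier results of these data known. Per-array values are given for up to 12 clustered and 12 variant probe sets with the largest change against DMSO and for genes named by choice where a probe set was found (32 in all). Another 9 were named after values were seen.

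Values were taken as log2(signal + 16). Probe sets below the 40th percentile of mean level were dropped, which left 13329. limma 3.58.1 in R 4.3.3 fitted 1 mean per group with a variance trend, and adjusted p-values by Benjamini and Hochberg within each comparison. The script was tested on simulated data. Figures used matplotlib 3.10.9. Alternatives were 2 pseudocounts, 2 filters, quantile normalization, median centring, 1 probe set per gene, no trend, only the groups compared, the arrays of highest actin ratio left out, and each array left out in turn.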

Additional observations from a re-analysis of the deposited data

Results flagged for a closer look

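In 10 of 123 groups of 4 arrays, among the probe sets given by array or named, 1 array stood apart from the other 3 by Dixon's test, where chance flags about 1 in 20 groups. Among lower values, H4C9 (214634_at) had 32.9 on DMSO 11, with 80.9 to 95.6 on the others. H3-3 (209069_s_at) had 5973 on DMSO 9, with 6504 to 6571 on the others. The H3-3 probe set 208755_x_at had 25295 on nilotinib 1, with 31005 to 31642 on the others, and H2BC12L had 7645 on nilotinib 1, with 9674 to 10057. H2BC6 had 2288 on nilotinib 2, with 2520 to 2563 on the others, and 208490_x_at, which names H2BC4, H2BC10, H2BC6, H2BC7 and H2BC8, had 2175 on nilotinib 4, with 2591 to 2638. Among higher values, 214290_s_at of H2AC18 and H2AC19 had 6061 on nilotinib 3, with 5527 to 5597 on the others, and H2AC6 had 5723 on imatinib 5, with 4705 to 4818. H2AC16 had 217 on DMSO 12, with 130 to 136 on the others, and H1-10 had 1031 on DMSO 12, with 979 to 984.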

How the results depend on the processing

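No paired analysis was possible because the sample numbers run through all arrays and no number is shared between groups. Median centring, which moves the median of all tested probe sets to -0.35, -0.13 and -0.24 for nilotinib against DMSO, imatinib against DMSO and nilotinib against imatinib, left 4 clustered probe sets higher with nilotinib, 3 higher with imatinib and 0 higher between the drugs, with 8 lower between the drugs. It left 0 variant probe sets higher and 16 lower with nilotinib, 1 higher with imatinib, and 16 lower between the drugs. Quantile normalization left 7 clustered higher with nilotinib and 2 variant lower with imatinib. With 1 probe set per gene, which tests fewer probe sets, 9 clustered were lower with each drug, 3 were higher with imatinib and 0 lower between the drugs, while variants had 0 higher and 2 lower with nilotinib, 1 higher and 1 lower with imatinib, and 4 lower between the drugs. Without a variance trend, 1 variant was lower with imatinib and 4 between the drugs. With only the groups compared, 5 clustered were higher and 5 variants lower between the drugs. Without the 4 arrays of highest actin ratio (nilotinib 1 and 2, imatinib 5 and 6), 2 variants were lower with imatinib, and 5 clustered were higher and 3 variants lower between the drugs. The cause was not tested.

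With 1 array left out, between 4 and 8 variants were lower between the drugs, with 4 or 5 without nilotinib 4 or imatinib 5, 6 or 7. Between 2 and 6 variants were lower with imatinib, with 2 or 3 without imatinib 5 or DMSO 10 or 11. Between 5 and 9 clustered were higher between the drugs, with 5 without imatinib 6. Of calls against DMSO with nilotinib, 12 of 15 lower clustered and 8 of 8 lower variant probe sets held in every counted setting. With imatinib, 16 of 17 and 1 of 6 held. The settings counted were 21, or 20 where a stricter filter dropped the probe set. The fit with 1 probe set per gene was not among them. Of higher calls, 4 of 14 clustered and 0 of 5 variant held with nilotinib, and 3 of 7 and 1 of 6 with imatinib. Between the drugs, 0 of 8 higher clustered, 1 of 1 lower clustered and 3 of 8 lower variant calls held.

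Direction turned, with a call before or after, under median centring alone. With nilotinib against DMSO these were H2AZ2 202487_s_at (-0.29) and 212206_s_at (-0.40), the H3-3 probe sets 200080_s_at (-0.28), 208755_x_at (-0.093), 211940_x_at (-0.19) and 213828_x_at (-0.19), 208580_x_at of 14 H4 genes (-0.16) and 214455_at of 5 H2B genes (-0.36). Between the drugs they were 200080_s_at (-0.21), 211940_x_at (-0.25), 213828_x_at (-0.20) and H2BC12 (-0.24). Dim probe sets limit the data, since the median signal of all probe sets differed between groups, and 4 arrays a group give a median standard error of 0.16 (log2).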
